A study of Homo sapiens with 4 samples.

Results

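The genes examined here encode subunits of polycomb repressive complex 1 (PRC1): RING1, RNF2, BMI1, PCGF3, PCGF5, PCGF6, CBX2, CBX7 and CBX8. They were taken by gene symbol, not by any measured value, though with earlier results of these data known. Each matched 1 gene, so that they are 9 of the 60662 genes in the deposited table. The study overexpressed JMJD3, a histone H3K27 demethylase encoded by KDM6B, in AML cell lines. RNA was sequenced from NB4 cells, a human M3/APL line that carries PML-RARα, in 2 libraries after transduction with the control vector and 2 after transduction with a vector carrying JMJD3. The methods describe lentiviral pLVX-IRES-GFP plasmids, either empty or carrying wild-type JMJD3, and poly(A)-selected libraries. Once a scaling constant of each library had been divided out of the deposited counts, vector libraries 1 and 2 held 34190334 and 38947093 reads, and JMJD3 libraries 1 and 2 held 35431654 and 41876226 reads. Nothing in the sources says that the 2 libraries per group are separate cultures or transductions, so that the p-values measure the spread between these libraries, which may be technical.

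PRC1 is a chromatin complex that attaches ubiquitin to histone H2A and compacts chromatin, and it acts beside polycomb repressive complex 2 (PRC2), which methylates the H3K27 residue that JMJD3 demethylates. Around a catalytic core of RING1 or RNF2 bound to a PCGF protein, canonical complexes add a CBX protein, whose chromodomain reads methylated H3K27, together with PHC and SCM subunits, whereas variant complexes carry RYBP or YAF2 in place of the CBX protein. Among the subunits BMI1 is known in blood cells for maintaining stem cell self-renewal, and CBX7 and CBX8 have also been studied in leukemia.

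KDM6B (ENSG00000132510), the overexpressed gene, was at 15.8 and 13.7 CPM (read counts relative to library size, scaled by TMM) in vector libraries 1 and 2 and at 37.9 and 44.2 CPM in JMJD3 libraries 1 and 2. The JMJD3 libraries lay above both vector libraries, in the direction of the labels. The log2 fold change was 1.48 (standard error 0.13, adjusted p = 0.00116 by edgeR's quasi-likelihood test with Benjamini-Hochberg adjustment). Vector-derived and endogenous KDM6B transcripts cannot be told apart in these gene-level counts.

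Among the 9 PRC1 subunits, CBX8 rose and BMI1 and PCGF5 fell in JMJD3 cells, while the other 6 did not pass the test. All 9 passed the filter on low counts. Calls required an adjusted p under 0.05 (edgeR's quasi-likelihood test, Benjamini-Hochberg adjustment over 15243 genes tested). By this rule 1 of 9 subunits was higher, against 21.7% of all genes tested, and 2 of 9 were lower, against 19.1%. The CPM values of the groups did not overlap for 3 subunits that were higher and 4 that were lower in JMJD3 cells, against 39.4% and 34.9% of all genes tested. With a change of at least 2-fold also required, edgeR called 0 subunits higher (7.59% of all genes) and 0 lower (2.87%), also at an unadjusted p under 0.05. The DESeq2 Wald test gave the same counts of 0, and limma on log2(FPKM + 1) called 0 higher and 1 lower, PCGF5. Without vector library 1 more subunits were called in both directions, and without either JMJD3 library no subunit was called lower. Over all genes, more were called without either vector library and fewer without either JMJD3 library. The counts of the other lists given below have the same background. The median log2 fold change was 0.06 over the 9 subunits and 0.04 over all genes tested. The shares called were thus close to the background of a comparison in which many genes changed.

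**Figure D1:**
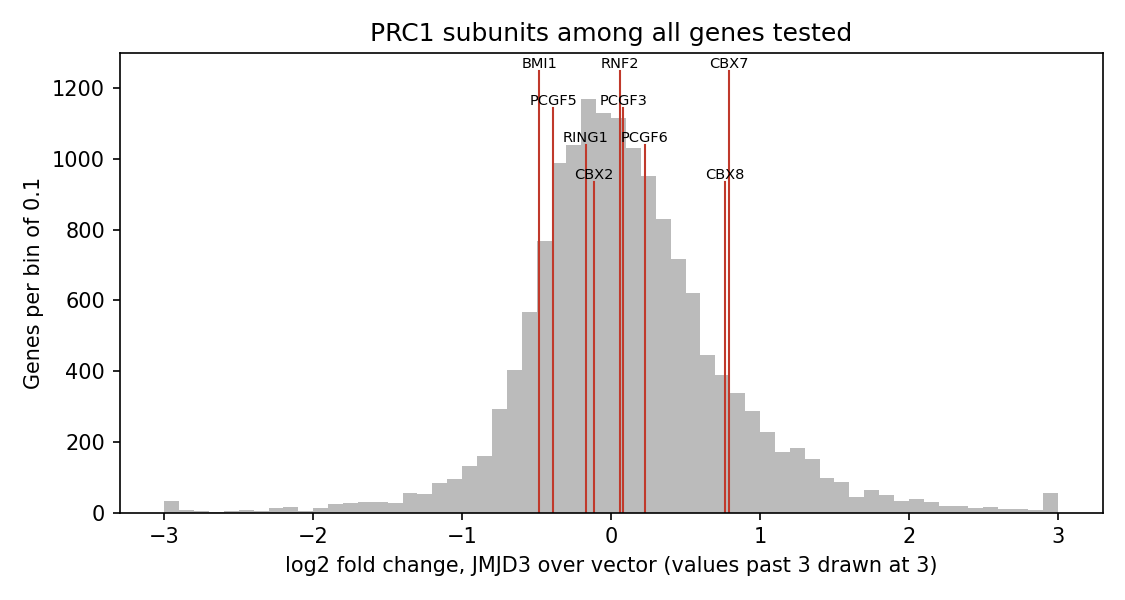
Histogram of the log2 fold change (JMJD3 over vector) of the 15243 genes tested, in bins of 0.1, with red lines for the 9 PRC1 subunits. The subunits lie between -0.48 (BMI1) and 0.79 (CBX7), inside the bulk of the distribution.

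**Figure D2:**
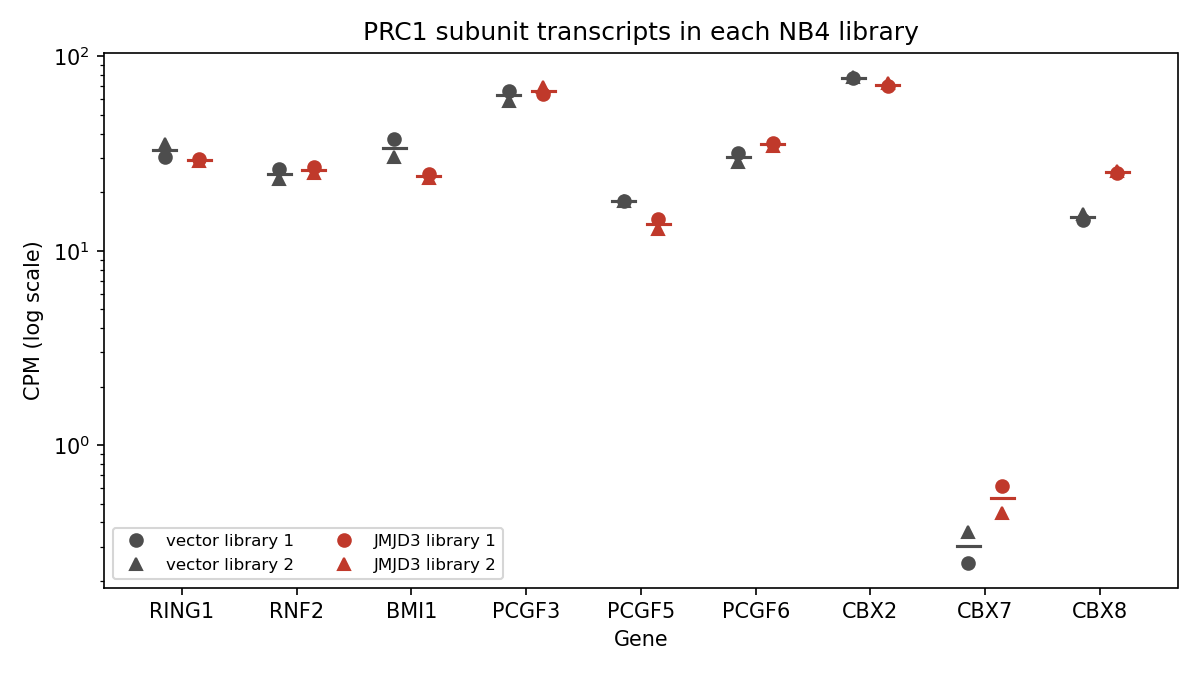
CPM of each PRC1 subunit on a log axis, with vector libraries in gray, JMJD3 libraries in red, circles for library 1, triangles for library 2 and a bar at each group mean. CBX8 sits at 14.3 and 15.5 CPM in vector libraries and 25.1 and 25.6 CPM in JMJD3 libraries, and CBX7 lies below 1 CPM in all 4.

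The catalytic subunits RING1 and RNF2 are the E3 ubiquitin ligases of the complex, each found in separate PRC1 assemblies. RING1 (ENSG00000204227) was at 30.4 and 35.4 CPM in vector libraries 1 and 2 and at 29.5 and 28.9 CPM in JMJD3 libraries 1 and 2. The JMJD3 values lay below both vector values, close to that of vector library 1. Its log2 fold change was -0.17 (95% interval -0.44 to 0.10, adjusted p = 0.258 by edgeR's quasi-likelihood test with Benjamini-Hochberg adjustment). Without vector library 1, which the labels place on lane 20 while the other 3 libraries are on lane 17, the log2 fold change of RING1 was -0.32 and passed the test (adjusted p = 0.00392 by edgeR, between 0.00392 and 0.683 over all alternatives). This within-lane value rests on 1 vector library, which the fit assumes to vary like the others.

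RNF2 (ENSG00000121481) was at 26.5 and 23.4 CPM in vector libraries and at 26.9 and 25.1 CPM in JMJD3 libraries. The groups overlapped. Its log2 fold change of 0.06 had a 95% interval from -0.20 to 0.33, which spans 0. On the per-length FPKM scale, where levels of different genes can be compared, the ratio of RING1 to RNF2 was 1.23 and 1.77 in vector libraries and 1.14 and 1.24 in JMJD3 libraries. RING1 was thus the more abundant transcript of the pair in all 4 libraries, and the ratio overlapped between groups.

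BMI1 (ENSG00000168283), the PCGF subunit of a canonical complex, fell. It lies on chromosome 10 and its promoter is shown because BMI1 and PCGF5 were the subunits that fell. RefSeq lists 2 starts for BMI1, 857 bases apart, and the window of the downstream one (chr10:22321706-22322005) held neither CACGTG nor CCAAT. The 300 bases shown run from 250 before to 50 after the upstream start on the plus strand (GRCh38.p14, chr10:22320849-22321148), with a match to CACGTG, the E-box read by MAX-containing dimers, in capitals.
BMI1 promoter: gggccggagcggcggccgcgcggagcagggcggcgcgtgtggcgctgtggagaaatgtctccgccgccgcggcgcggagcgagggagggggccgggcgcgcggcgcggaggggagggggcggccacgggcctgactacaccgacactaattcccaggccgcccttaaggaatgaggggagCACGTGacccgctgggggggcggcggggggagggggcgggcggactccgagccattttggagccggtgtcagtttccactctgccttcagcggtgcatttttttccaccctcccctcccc

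BMI1 was at 37.5 CPM in vector library 1 and 30.3 CPM in vector library 2, and at 24.8 and 23.7 CPM in JMJD3 libraries 1 and 2. Both JMJD3 values lay below both vector values, and the vector libraries were further apart than the JMJD3 libraries. The mean went from 33.9 ± 5.14 CPM (SD, n = 2) to 24.2 ± 0.738 CPM (SD, n = 2). On the log2 scale the difference was -0.48 (adjusted p = 0.0256 by edgeR's quasi-likelihood test with Benjamini-Hochberg adjustment). The call was lost without JMJD3 library 1 (log2 fold change -0.51, adjusted p = 0.119 by edgeR) and without JMJD3 library 2 (-0.45, adjusted p = 0.192 by edgeR). Within lane 17, from 1 vector library, the log2 fold change of BMI1 was -0.36 and was called. On FPKM the fall of BMI1 was of similar size, -0.46 with limma on log2(FPKM + 1), and did not pass the test (adjusted p = 0.0950 by limma, between 1.05e-05 and 0.192 over all alternatives).

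BMI1 also shares sequence with a readthrough gene. COMMD3-BMI1 (ENSG00000269897) joins the neighboring gene COMMD3 to BMI1, and 97.9% of the BMI1 span lies inside it (RefSeq, GRCh38.p14). The readthrough gene was at 6.17 and 2.06 CPM in vector libraries 1 and 2 and at 3.94 and 4.10 CPM in JMJD3 libraries 1 and 2. The vector libraries thus lay on either side of the JMJD3 libraries. Its log2 fold change was -0.02 (adjusted p = 0.978 by edgeR's quasi-likelihood test), and turned to 0.93 without vector library 1 and -0.62 without vector library 2, each past the threshold (adjusted p = 0.000879 and 0.00260 by edgeR, between 0.000879 and 0.993 over all alternatives). How the authors' software divided reads between the overlapping genes was not tested. With BMI1 and COMMD3-BMI1 summed, the libraries held 43.7, 32.3, 28.7 and 27.8 CPM in the order vector 1, vector 2, JMJD3 1 and JMJD3 2. The groups still did not overlap, but the log2 fold change of BMI1 then was -0.43 and was not called (adjusted p = 0.0631 by edgeR). COMMD3 itself was at 13.0 and 15.3 CPM in vector libraries and at 11.7 and 11.7 CPM in JMJD3 libraries, with a log2 fold change of -0.28 that did not pass the test (adjusted p = 0.106 by edgeR). The pseudogene BMI1P1 was at 0 reads in all 4 libraries.

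PCGF5 (ENSG00000180628) belongs to a variant complex and spans chromosome 10 from 91156219 to 91284337 (GRCh38.p14). The RefSeq promoters used here give 4 starts for it, up to 57670 bases apart, in an upstream and a downstream region. The upstream end of the span is not among these starts. A promoter of each region is shown since the length assigned to its transcripts differed between groups, as described below. In the upstream window (chr10:91162762-91163061, plus strand) the capitals mark CCAAT, and the downstream window (chr10:91220413-91220712, plus strand) held neither CACGTG nor CCAAT on either strand.
PCGF5 upstream promoter: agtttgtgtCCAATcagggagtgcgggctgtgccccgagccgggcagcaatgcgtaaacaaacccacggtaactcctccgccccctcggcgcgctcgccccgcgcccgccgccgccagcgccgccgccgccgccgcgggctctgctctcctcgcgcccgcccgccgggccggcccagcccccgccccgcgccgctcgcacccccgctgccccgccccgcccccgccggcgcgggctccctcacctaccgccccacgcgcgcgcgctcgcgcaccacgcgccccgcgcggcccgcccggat
PCGF5 downstream promoter: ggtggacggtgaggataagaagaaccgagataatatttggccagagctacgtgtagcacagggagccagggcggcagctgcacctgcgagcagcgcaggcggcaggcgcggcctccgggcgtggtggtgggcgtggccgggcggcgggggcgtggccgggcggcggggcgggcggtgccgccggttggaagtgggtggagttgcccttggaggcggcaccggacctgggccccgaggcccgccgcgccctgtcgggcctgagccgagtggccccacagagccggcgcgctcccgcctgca

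PCGF5 was at 18.0 and 18.1 CPM in vector libraries 1 and 2 and at 14.5 and 13.0 CPM in JMJD3 libraries 1 and 2. The vector libraries were almost equal and both JMJD3 libraries lay below them. The log2 fold change was -0.39 (standard error 0.11, adjusted p = 0.0300 by edgeR's quasi-likelihood test with Benjamini-Hochberg adjustment). The call was lost without JMJD3 library 1 (log2 fold change -0.47, adjusted p = 0.145 by edgeR) and without JMJD3 library 2 (-0.31, adjusted p = 0.369 by edgeR), and held within lane 17 (-0.44, from 1 vector library).

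On the FPKM scale the fall of PCGF5 was larger. PCGF5 was at 21.1 and 22.3 FPKM in vector libraries 1 and 2 and at 10.3 and 10.2 FPKM in JMJD3 libraries 1 and 2. The groups lay far apart relative to the spread within each. The log2 fold change was -1.02 with limma on log2(FPKM + 1) (adjusted p = 0.00802 by limma, between 0.00185 and 0.369 over all alternatives), against -0.39 from counts. The deposited count divided by FPKM follows the effective length that the authors' quantification assigned to a gene. For PCGF5 this quotient was 31.6 and 30.9 in vector libraries and 52.3 and 47.3 in JMJD3 libraries, a ratio of 1.60 between groups. Over 12669 genes with more than 0.5 FPKM in every library, 95% of such ratios lay between 0.764 and 1.32, and 1.13% were as far from 1 as that of PCGF5 in either direction. The annotated PCGF5 transcripts run from 811 to 7149 bases (GENCODE, 5 transcripts), and the 3 coding ones from 7037 to 7149 bases. In each library the quotient of PCGF5 lay below that of RING1, which was between 55.4 and 55.8. The RING1 transcripts run from 1532 to 1741 bases. Thus the length assigned to PCGF5 was greater in JMJD3 libraries than in vector libraries, and in both groups below that of its coding transcripts in this annotation. The FPKM level of PCGF5 rests on this assigned length. The deposited table gives no values per transcript and does not show which transcripts took the reads.

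**Figure D3:**
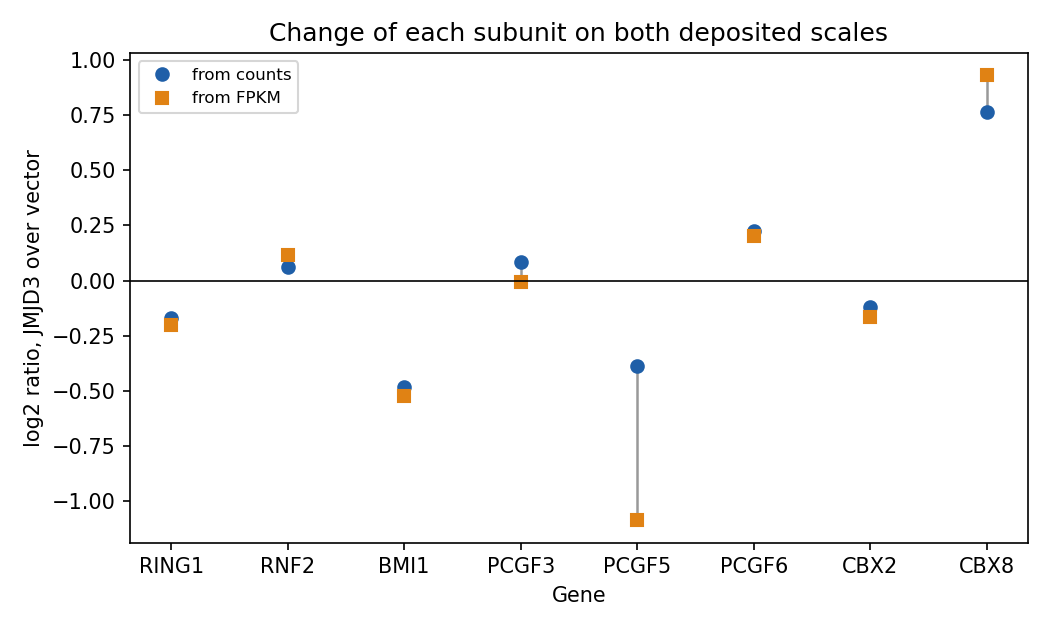
log2 ratio of JMJD3 to vector for the PRC1 subunits other than CBX7, from counts (circles, edgeR) and from the group means of FPKM (squares), joined by a line. PCGF5 has the longest line, from -0.39 on counts to -1.09 on FPKM, while CBX8 goes from 0.76 to 0.93.

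PCGF3 and PCGF6 are the PCGF subunits of further variant complexes, PCGF6 partnering the E-box dimer of MGA and MAX. PCGF3 (ENSG00000185619) was at 66.7 and 59.1 CPM in vector libraries and at 63.9 and 69.2 CPM in JMJD3 libraries. The groups overlapped, and the log2 fold change of 0.08 had a 95% interval from -0.16 to 0.33. PCGF6 (ENSG00000156374) was at 31.9 and 28.5 CPM in vector libraries and at 35.8 and 34.7 CPM in JMJD3 libraries. Both JMJD3 values of PCGF6 lay above the vector values, yet its log2 fold change of 0.22 (standard error 0.10) was not called (adjusted p = 0.128 by edgeR's quasi-likelihood test with Benjamini-Hochberg adjustment). Without vector library 1 the log2 fold change of PCGF6 was 0.27 and passed the test (adjusted p = 0.0137 by edgeR, between 0.0137 and 0.543 over all alternatives).

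The PCGF family has 2 further genes that are not among the 9. PCGF1, the subunit of the BCOR complex, was at 18.7 and 21.1 CPM in vector libraries and 21.3 and 20.7 CPM in JMJD3 libraries, and PCGF2, the canonical paralog of BMI1, at 4.13 and 5.37 CPM in vector libraries and 4.83 and 3.63 CPM in JMJD3 libraries. Neither was called (adjusted p = 0.615 and 0.512 by edgeR's quasi-likelihood test), and both overlapped between groups. As a share of the summed FPKM of the 6 PCGF genes, PCGF5 made up 19.3% and 19.7% in vector libraries and 10.2% and 10.1% in JMJD3 libraries. BMI1 made up 13.8% and 9.69% in vector libraries and 9.23% and 8.78% in JMJD3 libraries. The share of PCGF6 was 15.1% and 13.6% in vector libraries and 18.3% and 18.1% in JMJD3 libraries, and that of PCGF1 was 20.7% and 27.8% in vector libraries and 31.0% and 28.5% in JMJD3 libraries. PCGF3 held between 27.1% and 33.0% in all 4. The sum itself was 109 and 113 FPKM in vector libraries and 101 and 101 FPKM in JMJD3 libraries. On FPKM the shares of PCGF5 and BMI1 were therefore smaller in both JMJD3 libraries. The share of BMI1 leaves out its readthrough gene COMMD3-BMI1. That gene was at 12.7 and 6.27 FPKM in vector libraries and 8.99 and 8.79 FPKM in JMJD3 libraries. BMI1 itself was at 15.1 and 10.97 FPKM in vector libraries and 9.35 and 8.84 FPKM in JMJD3 libraries. Whether the share of BMI1 summed with COMMD3-BMI1 was smaller was not tested. The share of PCGF5 carries the change in its assigned length, since its counts fell less than its FPKM, and these shares are a description with no test.

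**Figure D4:**
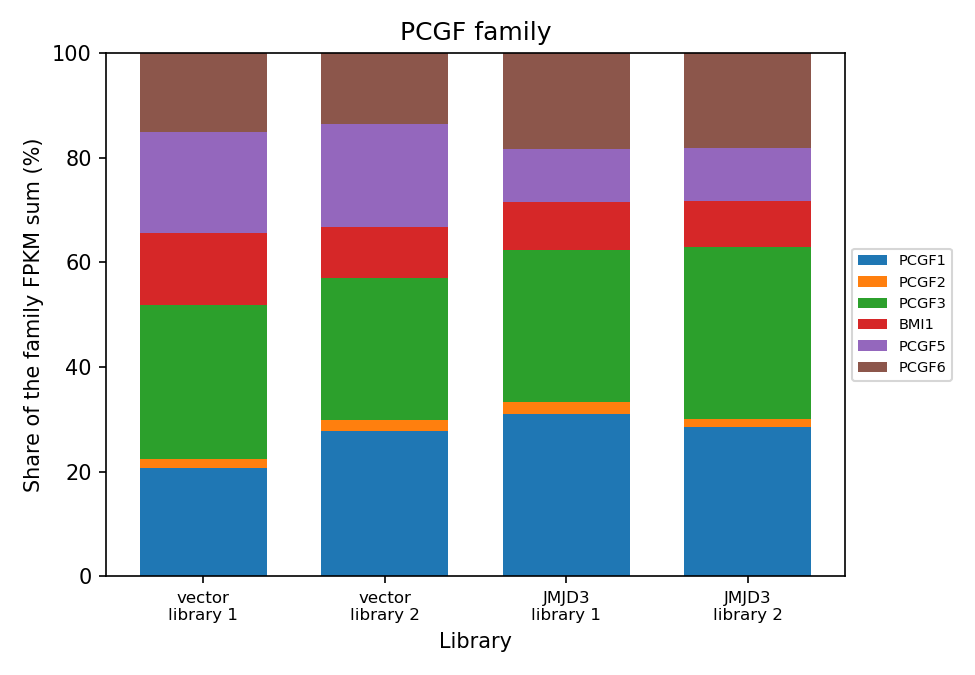
Share of the summed FPKM of the PCGF genes held by each gene, 1 bar per library. The PCGF5 band narrows from 19.3% and 19.7% in vector libraries to 10.2% and 10.1% in JMJD3 libraries, on a scale that carries the change in its assigned length.

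CBX8 (ENSG00000141570) was the subunit that rose. It encodes a chromodomain protein of canonical PRC1 and lies on chromosome 17. CBX8 was at 14.3 and 15.5 CPM in vector libraries 1 and 2 and at 25.1 and 25.6 CPM in JMJD3 libraries 1 and 2. The lowest JMJD3 value was well above the highest vector value, and the libraries within each group were close. The mean went from 14.9 ± 0.850 CPM (SD, n = 2) to 25.3 ± 0.310 CPM (SD, n = 2), a 1.70-fold rise or 0.76 on the log2 scale (95% interval 0.52 to 1.01, adjusted p = 0.00300 by edgeR's quasi-likelihood test with Benjamini-Hochberg adjustment). CBX8 was called at an adjusted p under 0.05 in each of the 14 alternative fits, with log2 fold changes from 0.66 to 0.92, but not where at least 2-fold was also required. Within lane 17 the log2 fold change of CBX8 was 0.66, from 1 vector library.

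CBX2 neighbors CBX8 on chromosome 17, with 4148 bases between the genes (RefSeq, GRCh38.p14). CBX2 (ENSG00000173894), the CBX subunit known for compacting nucleosomes, was at 77.4 and 78.0 CPM in vector libraries and at 70.4 and 72.8 CPM in JMJD3 libraries. The groups of CBX2 did not overlap, but the log2 fold change of -0.12 (95% interval -0.32 to 0.08) was not called (adjusted p = 0.290 by edgeR's quasi-likelihood test). The neighbors thus had log2 fold changes of -0.12 and 0.76, and the difference between them was not tested.

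CBX7 (ENSG00000100307) was the scarcest subunit. It rested on 8 and 13 reads in vector libraries and 23 and 20 reads in JMJD3 libraries, or 0.247, 0.356, 0.617 and 0.448 CPM. The JMJD3 values were the higher ones, but with so few reads the log2 fold change of 0.79 had a 95% interval from -0.14 to 1.72 and was not called (adjusted p = 0.145 by edgeR's quasi-likelihood test). On FPKM the values of CBX7 overlapped between groups, at 0.0641 and 0.312 in vector libraries and 0.221 and 0.116 in JMJD3 libraries, and its log2 fold change turned to -0.02 with limma on log2(FPKM + 1). CBX6, which is not among the 9, was at 46.8 and 49.4 CPM in vector libraries and 48.8 and 52.8 CPM in JMJD3 libraries (log2 fold change 0.08, adjusted p = 0.535 by edgeR's quasi-likelihood test). On FPKM, CBX6 was at 8.41 and 8.99 in vector libraries and 9.19 and 10.5 in JMJD3 libraries, against 6.79 and 7.01 and then 12.2 and 14.1 for CBX8. CBX8 thus lay below CBX6 in both vector libraries and above it in both JMJD3 libraries.

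The genes whose pattern over the 4 libraries was most like that of CBX8 were ASIC1, CHST12 and BZRAP1-AS1, by the root mean square difference of gene-centered log2 CPM among 10143 genes with a mean of at least 5 CPM. ASIC1 differed by 0.0137, at 50.1 and 54.2 CPM in vector libraries and 89.8 and 89.6 CPM in JMJD3 libraries. CHST12 differed by 0.0155 and BZRAP1-AS1 by 0.0186, with log2 fold changes of 0.78 and 0.74 against 0.76 for CBX8. BZRAP1-AS1 is an antisense gene, whose reads cannot be told apart from those of its sense partner without strand.

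The order of the subunits by level was taken on FPKM. In vector libraries PCGF3 was highest at 31.5 ± 1.10 FPKM (SD, n = 2), followed by RING1, PCGF5, CBX2, PCGF6, RNF2, BMI1, CBX8 and CBX7. The values of RING1 and PCGF5 overlapped, as did those of PCGF6 and RNF2 and those of RNF2 and BMI1, so that these neighbors did not differ beyond their spread. In JMJD3 libraries PCGF3 again led at 31.4 ± 2.64 FPKM (SD, n = 2), followed by RING1, PCGF6, CBX2, RNF2, CBX8, PCGF5, BMI1 and CBX7. There no neighbors overlapped. CBX8 moved from 6.90 ± 0.154 FPKM (SD, n = 2) to 13.2 ± 1.28 FPKM (SD, n = 2) and so from rank 8 to rank 6, while PCGF5 moved from rank 3 to rank 7. The rank of PCGF5 carries the change in assigned length described above, since its counts fell less than its FPKM. So does the rank of CBX8, which passed PCGF5 and BMI1 on this scale. The log2 ratio of CBX8 was 0.93 on FPKM and 0.76 from counts. The level of BMI1 leaves out its readthrough gene, whose FPKM values are given above. The rank of BMI1 thus depends on how reads were divided between these overlapping genes.

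Of 8 other core subunits of PRC1, 1 was higher and 2 were lower (21.7% and 19.1% of all genes), with a median log2 fold change of 0.08. The count higher was 3 without vector library 1, and without JMJD3 library 1 or 2 at most 1 was called in either direction. SCMH1, an SCM subunit, was at 87.8 and 91.8 CPM in vector libraries and at 59.9 and 59.7 CPM in JMJD3 libraries. It fell the most of these genes, with a log2 fold change of -0.59 (adjusted p = 0.00362 by edgeR's quasi-likelihood test with Benjamini-Hochberg adjustment). Of the polyhomeotic subunits, which polymerize through their SAM domains, PHC2 was at 65.4 and 73.4 CPM in vector libraries and at 50.7 and 50.6 CPM in JMJD3 libraries. PHC1 was at 17.9 and 16.7 CPM in vector libraries and at 24.1 and 26.1 CPM in JMJD3 libraries. PHC2 thus fell (log2 fold change -0.45, adjusted p = 0.0123 by edgeR) and PHC1 rose (log2 fold change 0.54, adjusted p = 0.00945 by edgeR). PHC2 lost its call without JMJD3 library 1 (-0.45) or 2 (-0.45) and with limma on FPKM, which left 1 gene of the list lower, and PHC1 without JMJD3 library 2 (0.48). PHC3 was at 19.2 and 10.3 CPM in vector libraries and at 14.8 and 17.04 CPM in JMJD3 libraries, so that the vector libraries enclosed the others. Its log2 fold change of 0.12 was 0.59 without vector library 1 and -0.27 without vector library 2, each past the threshold (adjusted p = 0.000477 and 0.0410 by edgeR, between 0.000477 and 0.982 over all alternatives). SCML2 was at 11.4 and 8.28 CPM in vector libraries and at 10.5 and 11.02 CPM in JMJD3 libraries and was not called (adjusted p = 0.549 by edgeR), but was called without vector library 1 (log2 fold change 0.34).

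**Figure D5:**
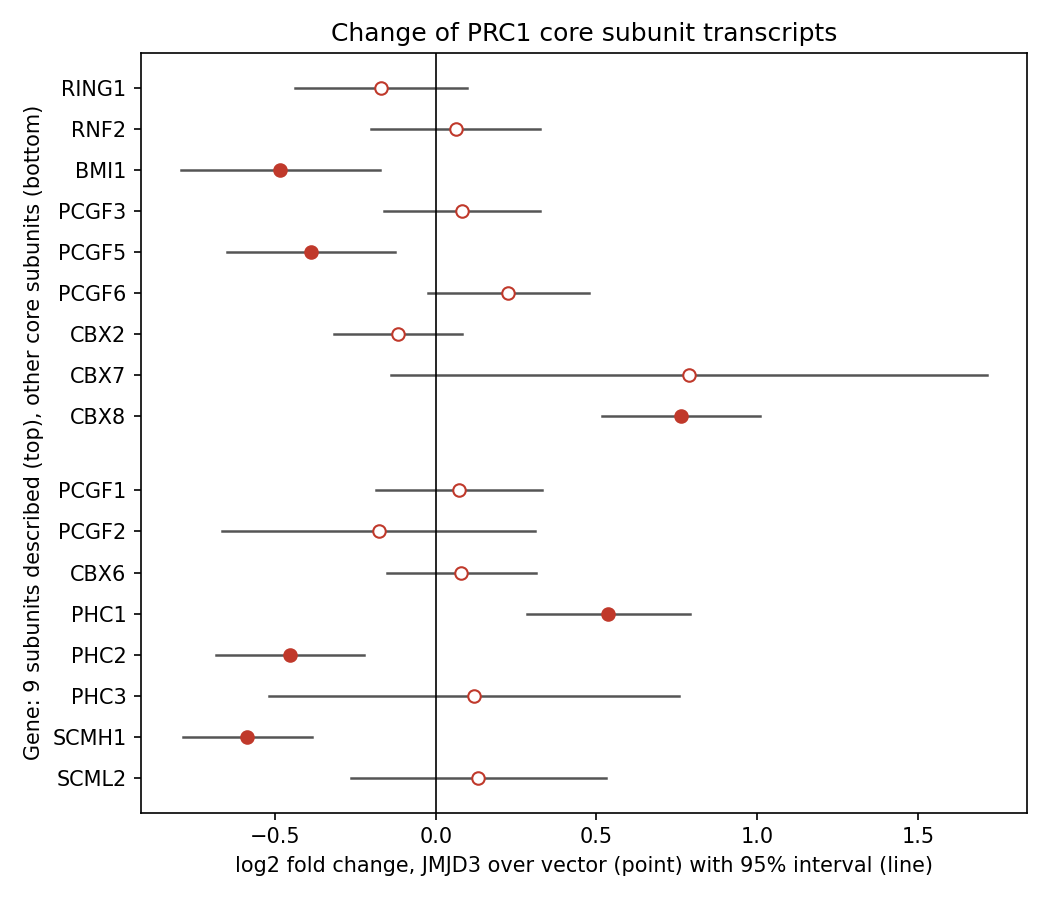
log2 fold change (JMJD3 over vector) with its 95% interval from edgeR's quasi-likelihood fit, for the 9 PRC1 subunits (top) and 8 other core subunits (bottom), filled where the adjusted p was under 0.05. CBX8 and PHC1 are filled to the right of 0 (0.76 and 0.54), BMI1, PCGF5, PHC2 and SCMH1 to the left, and the interval of CBX7 is the widest.

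RefSeq promoters (250 bases before to 50 after each start) were listed for 7 of the 9 subunits, 11 windows in all, and not for CBX2 and CBX8. CACGTG was found in 1 of the 11 windows, that of BMI1 shown above, and in 7.26% of all 35116 promoters. CCAAT was found on either strand in 3 windows, from PCGF5 and CBX7, and in 34.6% of all promoters. The PCGF5 windows among these overlap and hold the same match. A match is a description of letters, not a site. CG dinucleotides numbered from 5 to 65 per window, and 10 of the 11 windows were above the median of 14 over all promoters. The exception was a downstream PCGF5 window with 5, while the upstream PCGF5 window shown above held 55. The printed BMI1 window held 36.

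Of 23 accessory subunits of variant PRC1, all tested, 3 were higher and 11 lower (21.7% and 19.1% of all genes), and 9 were not called, with a median log2 fold change of -0.25 against 0.04 over all genes. Without JMJD3 library 1 or 2 at most 1 gene of this list was called in either direction, and limma on log2(FPKM + 1) called 1 higher and 7 lower. AUTS2, a partner of PCGF3 and PCGF5, was at 0.987 and 0.850 CPM in vector libraries and at 0.268 and 0.134 CPM in JMJD3 libraries. Its log2 fold change was -2.20 (adjusted p = 0.00706 by edgeR's quasi-likelihood test with Benjamini-Hochberg adjustment) on 32, 31, 10 and 6 reads, and turned to 0.04 with limma on log2(FPKM + 1). FBRSL1, a relative of AUTS2, was at 235 and 266 CPM in vector libraries and 179 and 180 CPM in JMJD3 libraries, a log2 fold change of -0.48 whose call was lost without JMJD3 library 1 (-0.47) or 2 (-0.48). RYBP, which occupies the CBX position in variant complexes, was at 25.9 and 20.2 CPM in vector libraries and 31.9 and 32.8 CPM in JMJD3 libraries. RYBP and BCORL1, a subunit of the PCGF1 complex, rose by log2 fold changes of 0.49 and 0.52 (adjusted p = 0.0298 and 0.00910 by edgeR), and neither call held with limma on FPKM, without JMJD3 library 1 (0.51 and 0.56) or without JMJD3 library 2 (0.47 for both).

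The enzymes that remove ubiquitin from H2A, and the PR-DUB complex, made up a list of 13 genes, of which 12 were tested, 2 were higher and 5 lower (21.7% and 19.1% of all genes), with a median log2 fold change of 0.01. Leaving out vector library 1 gave 4 higher, without JMJD3 library 1 there were 2 lower, and without JMJD3 library 2 there were 1 higher and 2 lower. HCFC1, a chromatin adaptor, was at 373 and 328 CPM in vector libraries and at 194 and 216 CPM in JMJD3 libraries. USP16, an H2A deubiquitinase, was at 77.5 and 63.5 CPM in vector libraries and at 42.1 and 42.1 CPM in JMJD3 libraries. They fell by 0.77 and 0.74 on the log2 scale (adjusted p = 0.00253 and 0.00488 by edgeR's quasi-likelihood test with Benjamini-Hochberg adjustment). FOXK1 had a log2 fold change of -0.56, and KDM1B, a histone H3K4 demethylase, had one of 0.77 (adjusted p = 0.00817 and 0.0146 by edgeR). The call of FOXK1 was lost without JMJD3 library 1 (-0.56) or 2 (-0.55).

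Of the 13 PRC2 genes, 2 were higher and 4 lower (21.7% and 19.1% of all genes), with a median log2 fold change of -0.19. Without vector library 1 or 2 there were 5 and 4 higher, and without JMJD3 library 1 or 2 at most 1 in either direction. The cofactor JARID2 was at 82.7 and 65.2 CPM in vector libraries and at 119 and 125 CPM in JMJD3 libraries, and rose with a log2 fold change of 0.72 (adjusted p = 0.00613 by edgeR's quasi-likelihood test with Benjamini-Hochberg adjustment). EZH1, a catalytic subunit, had a log2 fold change of 0.38, and the Tudor-domain subunits PHF19 and PHF1 had log2 fold changes of -0.61 and -0.46 (adjusted p = 0.0215, 0.00694 and 0.0250 by edgeR). Calls were lost without JMJD3 library 1 for EZH1 (0.35), PHF19 (-0.58) and PHF1 (-0.53), and without JMJD3 library 2 for EZH1 (0.41) and PHF1 (-0.39). The INK4 locus, a known target of PRC1 in which CBX7 and BMI1 have been studied, was near silent. CDKN2A had 0 reads in 3 libraries and 3 reads in JMJD3 library 2, and CDKN2B and CDKN2B-AS1 had 0 reads in all 4, so that none of the 3 was tested. A count of 0 allows up to 3 reads, between 0.0672 and 0.0925 CPM by library, and such limits cover counting error only.

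Markers of the cell type were examined beside these values. All 9 myeloid markers had reads, and their summed level was 17780 and 18660 CPM in vector libraries and 11981 and 11920 CPM in JMJD3 libraries, mostly from MPO. Of the 8 that were tested, 4 were lower and 3 were higher (19.1% and 21.7% of all genes). The log2 fold changes were -0.57 for MPO, -3.91 for CTSG, -1.81 for PRTN3 and -0.56 for AZU1, and 0.31 for ANPEP, 0.29 for CD33 and 0.73 for CEBPE, so that the sum does not describe every marker. ELANE was at 11 and 7 reads in vector libraries and 1 and 2 reads in JMJD3 libraries. All 5 erythroid markers were at 0 reads in every library. The 4 T cell markers summed to 3.76 and 5.29 CPM in vector libraries and 11.1 and 11.1 CPM in JMJD3 libraries, mostly from CD2, while CD3D, CD3E and CD3G had at most 10 reads in a library. The 3 B cell markers summed to 10.4 and 11.6 CPM in vector libraries and 17.6 and 15.9 CPM in JMJD3 libraries, mostly from CD79A, with MS4A1 at 0. The 3 monocyte markers summed to 5.24 and 4.06 CPM in vector libraries and 13.3 and 13.2 CPM in JMJD3 libraries, mostly from CSF1R, with FCGR3A at 0. The myeloid sum was thus lower, and the T cell, B cell and monocyte sums higher, in the JMJD3 libraries. For transduced leukemia cells the methods describe isolation of the GFP+ fraction by FACS, which selects for the vector and not for a cell type, and do not say at which point RNA was taken. The part of these markers in the results was not tested, and in bulk RNA fewer cells of a type and less RNA per cell cannot be told apart.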

How the data were processed

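For each gene of the 4 libraries the authors gave an estimated count and an FPKM. Their own fold changes and p-values were not used. Sources disagree on the upstream steps: the methods name STAR, hg19, HTSeq-count and DESeq2, the submitters' processing notes CASAVA 1.8, TopHat2 2.0.4, RSEM, edgeR and GRCh38, and the design text other aligners.

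The deposited counts were estimated counts multiplied by a constant per library (1.14, 1.05, 0.993 and 0.829 for vector 1, vector 2, JMJD3 1 and JMJD3 2). After division by it, between 92.7% and 93.1% of nonzero values were whole within 0.01. The planned test assumed counts without such a constant, so it was divided out and values were rounded. The FPKM values, as deposited, carry the same constant. Genes kept by filterByExpr (15243 of 60662) were scaled by TMM and fitted with edgeR 4.0.16 (quasi-likelihood, R 4.3.3) with no covariate and Benjamini-Hochberg adjustment. Standard errors are the absolute log2 fold change over the square root of F. The tests were checked on simulated counts. Alternatives used DESeq2 1.42.0, upper quartile scaling, limma 3.58.1 on FPKM, other filters, a replicate block, each library left out, a 2-fold threshold, BMI1 summed with its readthrough gene, and, added after the data were seen, the constants left in and a crossed block.

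Members and lists were chosen with earlier results of these data known. Named genes were the 9 subunits, KDM6B, the other core subunits, the INK4 genes, up to 4 called genes with the largest change in each further polycomb list, the 3 genes most like the called subunit with the largest change, and readthrough genes holding a subunit symbol. COMMD3, BMI1P1 and marker genes were named beside these. EPOP was found by an older symbol. A planned gene of the other core list is not reported here.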

Additional observations from a re-analysis of the deposited data

How the results depend on the processing

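Of the 9 subunits, CBX8 and CBX2 kept their direction and side of an adjusted p of 0.05 under each of the 14 alternative fits, as did KDM6B (1.19 to 1.59), with CBX8 between 0.66 and 0.92. With at least 2-fold also required CBX8 was not called. BMI1 kept its direction, from -0.63 to -0.36 over fits without 1 library, and lost its call without either JMJD3 library, with limma on log2(FPKM + 1) (-0.46) and log2(FPKM + 0.1) (-0.50), and summed with COMMD3-BMI1 (-0.43). PCGF5 lost its call without either JMJD3 library (range -0.47 to -0.31) and with the replicate block (-0.39). Without vector library 1 RING1 (range -0.32 to -0.060) and PCGF6 (0.14 to 0.27) were called. Values near 0 turned for PCGF3 with limma (-0.0068 and -0.0070) and without vector library 2 (range -0.0047 to 0.14), for RNF2 without that library (-0.029 to 0.11). The sign of CBX7, 0.79 on few reads, turned with limma on log2(FPKM + 1) (-0.018). The cause was not tested.

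The count of subunits higher was 0 at 2-fold and from 1 to 2 over fits without 1 library. The count lower was 0 at 2-fold, 1 with limma on either FPKM scale, with the replicate block and with BMI1 summed, and from 0 to 3 over fits without 1 library. At an unadjusted p under 0.05, edgeR gave 2 lower without JMJD3 library 1 and 0 without JMJD3 library 2. In the other polycomb lists 8 genes were higher (2 to 16 without 1 library) and 22 lower (4 to 30). Over all genes, 3304 were higher and 2915 lower, against 1679 and 953 without JMJD3 library 2, 1940 and 1283 without JMJD3 library 1, 4526 lower without vector library 1, and 2046 higher with limma on log2(FPKM + 1) and 2035 on log2(FPKM + 0.1). Fits without a library have fewer samples, and the lone library left in a group is assumed to vary like the other group.

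Among other named genes, signs turned for PCGF1 (-0.053 to 0.16), PCGF2 (-0.40 to 0.022) and PHC3 (-0.27 to 0.59) without 1 library, SCML2 with limma (-0.12 and -0.15) and without 1 library (-0.085 to 0.34), AUTS2 with limma (0.042 and 0.12), and COMMD3-BMI1 with upper quartile scaling (0.027), the replicate block (0.13), a crossed block (0.078) and without 1 library (-0.62 to 0.93).

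The replicate numbers shared by the groups gave no pairing: deviations of same-numbered libraries had a correlation of -0.143. The replicate block gave 3279 genes higher and 2422 lower, and left 2 PRC2 genes lower in place of 4. Among the named genes, markers not included, it ended the calls of PCGF5 (-0.39) and EZH1 and of no others. With the numbers crossed, chosen after seeing the data, 4170 genes were higher and 3644 lower. The fit with the library constants left in, also added later, changed no subunit's call. CBX7 and AUTS2 had no value under the minimum of 10 counts in every library, and no subunit symbol was listed more than once, so none was summed. Depth limits what can be said of genes with few reads, such as CBX7 and the INK4 genes.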
